A study of Mus musculus with 8 samples.

Results

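RNA polymerase II phosphorylated at serine 5 of its C-terminal repeats (pSer5) was mapped by chromatin immunoprecipitation and sequencing (ChIP-seq) in lung smooth muscle cells (SMCs), and the peaks described here are those that lay inside a gene but away from its annotated start. Members were all peaks to which the deposited table assigns a gene and whose centre lay more than 500 nt from the transcription start site (TSS) of that gene. This rule selected 342 of the 1761 peaks of the table. Of the remaining peaks, 1013 had their centre at most 500 nt from the start of the assigned gene and 406 had no assigned gene. The 342 peaks fell into 315 genes, of which 298 held 1 peak each, and the rule used no measured value.

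The libraries came from C57BL/6 mice of 2 genotypes. Tet3smKO:T animals carried homozygous floxed Tet3 alleles, a tamoxifen-inducible Cre driven by the smooth muscle α-actin promoter (α-SMA ERT2Cre) and a tdTomato reporter in the ROSA26 locus. Ctrl animals, called WT in the labels, lacked the floxed alleles. The study's controls carried Cre, the reporter or both, and the reporter-positive sorting described next requires both. Only SMCs in which the actin promoter drives Cre recombine, so the libraries represent reporter-positive cells sorted from lung by fluorescence (per the study's methods, DAPI-negative and tdTomato-positive cells after depletion of CD45+ and Ter-119+ cells). Before lysis, cells of both genotypes were kept with 100 µmol of the elongation inhibitor DRB at 4 °C for 1 h. Each immunoprecipitation used 4 µg of antibody and 50 µg of sheared genomic DNA. Each genotype had 2 immunoprecipitated libraries, numbered 1 and 2. The 4 input libraries have no values in the table. The study's methods state at least 2 biological replicates for its quantitative analyses. The sources used here do not tie the numbers to animals or state whether animals were pooled. The p-values therefore measure only the spread between these libraries, whose technical part is not known.

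Pol II is phosphorylated at serine 5 when it initiates, and this form therefore accumulates at active promoters and just downstream of them, whereas DRB blocks the kinase that releases paused polymerase into elongation. A pSer5 peak inside a gene body can lie at an alternative promoter, at the promoter of an overlapping gene, at an intragenic enhancer or over polymerase that initiated elsewhere. TET3 oxidises 5-methylcytosine to 5-hydroxymethylcytosine, a mark found in bodies of transcribed genes. The comparison of genotypes addresses whether scaled pSer5 values at called peaks inside genes differ when Tet3 is lost in SMCs.

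Sequences of 8 peaks show the range of DNA that these regions covered. The first 4 are the peaks with the highest mean value in each of 4 distance steps, and the last 4 are, in each direction, the first 2 peaks of those whose libraries did not overlap between genotypes. All were read 5′ to 3′ on the plus strand of GRCm38 (mm10) at the table's coordinates, with the central 300 bases shown for longer peaks, and capitals mark CpG dinucleotides, the main substrate of cytosine methylation and of TET enzymes.
Eef1a1, chr9:78480871-78481125: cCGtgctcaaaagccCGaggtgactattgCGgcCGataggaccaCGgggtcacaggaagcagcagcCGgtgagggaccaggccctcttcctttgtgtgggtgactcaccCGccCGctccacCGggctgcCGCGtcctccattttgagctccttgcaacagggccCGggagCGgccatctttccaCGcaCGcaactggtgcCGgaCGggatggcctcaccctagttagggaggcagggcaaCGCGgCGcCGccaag
Zfp771, chr7:127254080-127254379: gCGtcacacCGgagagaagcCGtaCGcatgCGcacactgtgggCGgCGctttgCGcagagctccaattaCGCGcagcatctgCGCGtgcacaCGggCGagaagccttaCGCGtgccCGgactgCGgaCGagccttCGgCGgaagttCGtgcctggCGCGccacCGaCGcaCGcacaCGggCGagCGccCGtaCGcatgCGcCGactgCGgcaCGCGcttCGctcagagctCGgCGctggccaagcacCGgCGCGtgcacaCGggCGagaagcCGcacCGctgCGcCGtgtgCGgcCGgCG
Gm42906, chr5:151368597-151368896: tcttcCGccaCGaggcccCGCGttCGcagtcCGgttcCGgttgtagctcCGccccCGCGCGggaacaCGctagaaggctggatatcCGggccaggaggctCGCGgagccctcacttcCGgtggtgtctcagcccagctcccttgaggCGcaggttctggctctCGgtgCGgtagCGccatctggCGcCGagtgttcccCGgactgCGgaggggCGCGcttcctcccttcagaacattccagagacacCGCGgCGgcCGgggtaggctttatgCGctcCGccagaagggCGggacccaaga
Gm37240, chr3:84814338-84814637: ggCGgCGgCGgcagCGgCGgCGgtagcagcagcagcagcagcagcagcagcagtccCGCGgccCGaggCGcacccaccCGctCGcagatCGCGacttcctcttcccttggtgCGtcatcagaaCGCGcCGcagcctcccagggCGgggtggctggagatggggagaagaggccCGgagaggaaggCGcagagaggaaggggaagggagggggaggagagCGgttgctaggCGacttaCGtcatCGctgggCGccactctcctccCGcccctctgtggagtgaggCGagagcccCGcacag
Edc3, chr9:57723392-57723620: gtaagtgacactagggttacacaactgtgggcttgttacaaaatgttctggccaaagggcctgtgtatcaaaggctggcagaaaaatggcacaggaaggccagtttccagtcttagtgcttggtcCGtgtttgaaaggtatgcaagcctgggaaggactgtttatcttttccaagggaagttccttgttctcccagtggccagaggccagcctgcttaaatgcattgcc
Zbtb16, chr9:48723605-48723904: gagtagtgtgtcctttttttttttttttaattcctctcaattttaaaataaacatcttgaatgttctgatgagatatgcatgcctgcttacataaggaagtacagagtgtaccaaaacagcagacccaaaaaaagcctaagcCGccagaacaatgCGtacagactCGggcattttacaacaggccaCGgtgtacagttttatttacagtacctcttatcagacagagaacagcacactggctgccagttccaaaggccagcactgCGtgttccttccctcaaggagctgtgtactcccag
Nkd1, chr8:88555752-88555947: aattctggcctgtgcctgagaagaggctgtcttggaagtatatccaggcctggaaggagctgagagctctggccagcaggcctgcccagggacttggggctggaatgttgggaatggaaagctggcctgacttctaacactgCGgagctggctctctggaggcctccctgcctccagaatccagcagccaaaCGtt
1700012B07Rik, chr11:109817525-109817665: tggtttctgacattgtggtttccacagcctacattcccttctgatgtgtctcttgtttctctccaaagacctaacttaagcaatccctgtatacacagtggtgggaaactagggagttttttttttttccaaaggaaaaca

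The windows in Zfp771, Gm42906 and Gm37240 held 52, 33 and 29 CpGs, and that of Eef1a1 held 21. By contrast, the Zbtb16 window held 5 CpGs, those of Nkd1 and Edc3 held 2 and 1, and the peak in 1700012B07Rik held 0.

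Members were spread along the whole length of their genes. Measured from the TSS, peak centres had a median distance of 16430 nt, and the farthest was at 3462893 nt. All members lay downstream of the start and none upstream. By distance, 112 peaks lay over 500 to 5000 nt from the TSS, 73 over 5000 to 20000 nt, 97 over 20000 to 100000 nt and 60 over 100000 nt. The peaks within 5000 nt included the 2 with the highest mean values. Relative to gene length, the median position was 33.8% of the way from start to stop. Of the members, 115 lay in the first 20% of the gene, 77 between 20% and 40%, 47 between 40% and 60%, 52 between 60% and 80% and 51 in the last 20%. The first bin was thus the fullest. Host genes were mostly protein-coding (287 peaks), with 30 peaks in lincRNAs, 16 in antisense RNAs, and the others in smaller classes. In the GENCODE M21 annotation, 254 peak centres lay in introns of the host gene, 48 in untranslated exon sequence, 14 in coding exons, 23 in other exons and 3 outside the host gene as annotated there, including 2 whose gene identifier was not found.

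**Figure D1:**
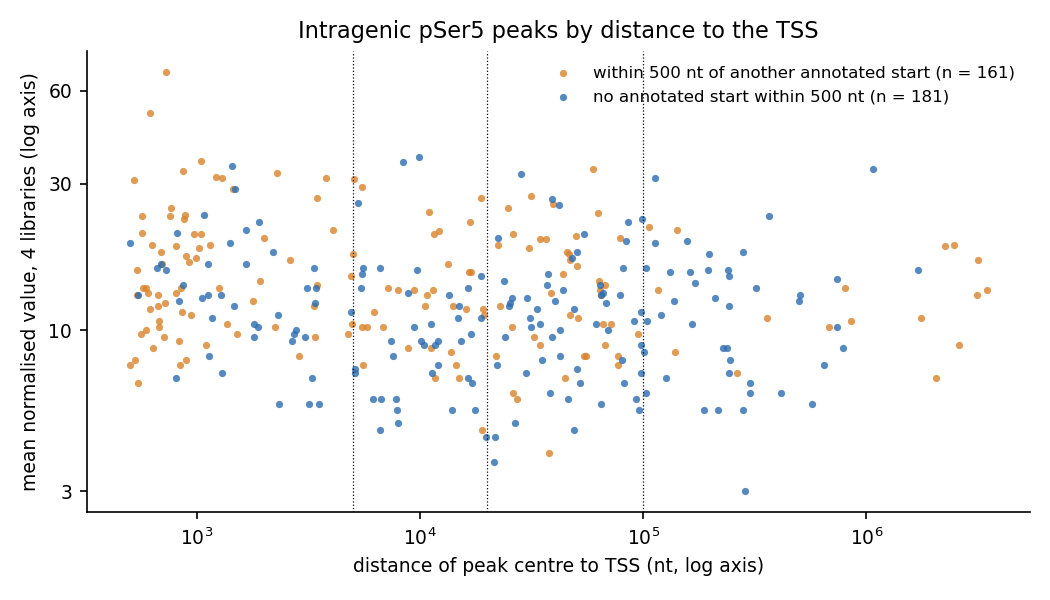
Each point is 1 of the 342 intragenic peaks, with its distance from the TSS in nt on the x axis and its mean normalised value over the 4 libraries on the y axis, both on log axes. Orange marks the 161 peaks within 500 nt of another annotated transcript start and blue the 181 others, and dotted lines separate the 4 distance steps. The highest point, at 69.2, is the peak in Eef1a1, and orange points thin out to the right up to the cluster at the far right.

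Many of these peaks lay at a start that was not the TSS used for the assignment. Within 500 nt of the peak centre, 161 of the 342 members (47.1%) had another transcript start annotated in GENCODE M21. For 98 of these it was another start of the host gene and for 88 a start of a different gene, with 25 counted under both. The starts of different genes were on the strand opposite to the host in 62 cases and on the same strand in 26, and 47 belonged to protein-coding transcripts. The share with another start was smaller at each farther step, from 70 of 112 (62.5%) within 5000 nt to 33 of 73 (45.2%), 41 of 97 (42.3%) and 17 of 60 (28.3%) in the following steps. Among peaks with no assigned gene, 189 of 406 (46.6%) had an annotated start within 500 nt. The remaining 181 members had none, and 160 of these lay in introns.

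Base composition separated the classes. Members near another start had a median G + C content of 68.6% and a CpG observed-over-expected ratio of 0.90, close to the 68.8% and 0.96 of peaks within 500 nt of the TSS. Members without a start nearby had medians of 52.0% and 0.28. A peak was called CpG-rich here when its G + C content was at least 50% and the ratio at least 0.6. This held for 128 of 161 members near another start (79.5%), 37 of 181 members without one (20.4%) and 980 of 1013 peaks at the TSS (96.7%). Peak widths were alike, with medians of 206, 190 and 203 nt. CpG-rich peaks made up 87 of 112 members within 5000 nt of the TSS (77.7%), but 16 of 60 members over 100000 nt away (26.7%).

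**Figure D2:**
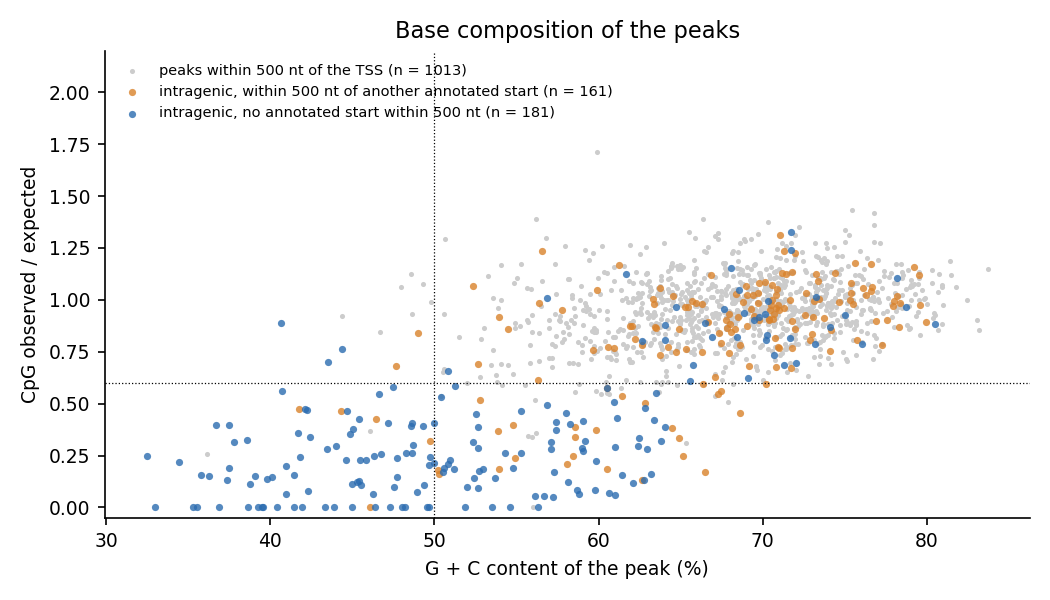
Each point is a peak, with its G + C content in percent on the x axis and its CpG observed-over-expected ratio on the y axis. Grey points are the 1013 peaks within 500 nt of the TSS, orange the 161 intragenic peaks near another annotated start and blue the 181 others, and dotted lines mark 50% and 0.6. Orange points lie mostly within the grey cloud, and blue points mostly below it.

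Short promoter motifs, searched on both strands, followed the same division. The Sp/Klf GC box GGGCGG was found in 92 of 161 members near another start (57.1%), in 39 of 181 without one (21.5%) and in 55.0% of all peaks. The Ets motif CCGGAA was present in 54 (33.5%) and 15 (8.29%) members of these classes, against 34.4% of all peaks, and the NRF1 core TGCGCA in 33 (20.5%) and 11 (6.08%), against 18.5%. All 3 contain at least 1 CpG, and the GC box can overlap runs of G + C. The TATA motif TATAAA, which has no CpG, was found in 5 members near another start (3.11%) and 13 without one (7.18%), against 3.07% of all peaks. The YY1 motif CCATNTT was found in 24 (14.9%) and 17 (9.39%), the E-box CACGTG in 11 (6.83%) and 9 (4.97%), and the cyclic AMP response element TGACGTCA in 6 (3.73%) and 1 (0.552%), where all peaks had 13.3%, 7.1% and 2.61%. A match of letters is not a bound site.

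The host genes with most peaks had very long gene models. The gene model named Galnt2 in the deposited annotation spanned 4434881 nt and held 8 members. Whether these lie in the Galnt2 enzyme gene itself was not checked. Fgfr2, a fibroblast growth factor receptor gene, held 5 in a model of 2960899 nt. Of the 8 peaks assigned to Galnt2, 5 were centred within 500 nt of the start of another gene, namely Banp, Zc3h18, Ankrd11, Spg7 and Tcf25. In 4 cases the start was less than 70 nt from the peak centre. Likewise 4 of the 5 peaks assigned to Fgfr2 lay at the starts of Abraxas2, Pstk, Plekha1 and Ate1. The 3 members farthest from their TSS were the Galnt2 peaks at Tcf25, Spg7 and Ankrd11, at 3462893, 3154634 and 3131505 nt. These distances are to the start of the host gene model and not to the nearest promoter.

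The values of these promoter-like peaks overlapped between genotypes. At Tcf25, a translation-associated quality control factor, the normalised values were 15 and 5 in Ctrl against 15 and 19 in Tet3smKO:T. The peak at Spg7, a mitochondrial protease gene, had 25 and 11 in Ctrl against 14 and 18 in Tet3smKO:T. At Ankrd11, a chromatin regulator, the values were 9 and 16 against 15 and 12. Replicates of a genotype differed by more than the genotypes did. Zc3h18 had 24 and 15 in Ctrl against 19 and 18 in Tet3smKO:T, and Banp had 7 and 5 against 9 and 7. The 3 Galnt2 peaks without an annotated start nearby lay 365775, 506202 and 1708786 nt from its TSS, with 23 and 30 against 17 and 24, 13 and 3 against 16 and 20, and 13 and 13 against 12 and 25. Of these, only the peak at 506202 nt did not overlap between genotypes, and its Ctrl values of 13 and 3 differed more than those of Tet3smKO:T.

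Within Fgfr2, the Abraxas2 start gave 8 and 0 in Ctrl against 16 and 5 in Tet3smKO:T, so a Ctrl library was listed at 0. The Pstk, Plekha1 and Ate1 starts gave 14 and 11 against 11 and 8, 14 and 29 against 14 and 18, and 11 and 4 against 9 and 12. The last Fgfr2 peak, 784773 nt from the TSS, had 9 and 6 in Ctrl against 9 and 11 in Tet3smKO:T.

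Bcas3, a gene with a role in cell migration, held 3 members in 472891 nt. The peak at 319895 nt had 20 and 19 in Ctrl against 6 and 10 in Tet3smKO:T and did not overlap between genotypes, whereas those at 139199 nt (5 and 9 against 9 and 11) and 413397 nt (6 and 8 against 9 and 2) had close or overlapping values. Both peaks in Zbtb16, which encodes the transcriptional repressor PLZF, lay in an intron, 98601 and 112468 nt from the TSS. They had no annotated start within 500 nt. The nearer peak had 14 and 21 in Ctrl against 26 and 31 in Tet3smKO:T, and the farther one 12 and 20 against 46 and 47. In both, the Tet3smKO:T libraries were higher without overlap. The lincRNA 2310001H17Rik held 2 peaks, with 35 and 31 in Ctrl against 33 and 42 in Tet3smKO:T at 8381 nt, and 7 and 25 against 15 and 14 at 5527 nt.

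The highest peaks of each step lay at other promoters as often as away from them. The unit throughout is the normalised read number of a peak, scaled by the authors, whose methods describe input subtraction. Within 5000 nt, the peak in Eef1a1, which encodes translation elongation factor 1 alpha, had the highest mean of all members, with 63 and 96 in Ctrl against 50 and 68 in Tet3smKO:T. It was centred 726 nt from the TSS in an intron and 157 nt from another Eef1a1 start. The next in this step lay in Gm26558 (45 and 51 against 51 and 56), 86 nt from the start of Gorasp2, a Golgi stacking protein gene, and in Gm20033 (34 and 44 against 36 and 28), within 500 nt of the start of Klf3, a zinc-finger transcription factor. None of the 3 separated the genotypes.

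Over 5000 to 20000 nt, the highest was a coding-exon peak of Zfp771, a zinc-finger gene, with 35 and 39 in Ctrl against 28 and 44 in Tet3smKO:T. Its position was 94.6% along the gene and the nearest annotated start was over 5000 nt away, although its CpG ratio of 1.33 was in the range of promoter peaks. The peak of 2310001H17Rik described above came second. The third lay in Gm26804, 127 nt from the start of 6820431F20Rik, with 33 and 35 against 26 and 30.

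Over 20000 to 100000 nt, the first peak was in Gm42906 (29 and 31 in Ctrl, 37 and 37 in Tet3smKO:T), 28.5 nt from the start of the lincRNA 1700028E10Rik. Gm39465 (18 and 39 against 24 and 48) and Tcte3 (19 and 43 against 28 and 19) followed, and in both the replicates of a genotype differed widely. Beyond 100000 nt, the highest mean belonged to a peak in Gm37240 (25 and 39 against 38 and 32), 780.5 nt from the start of Fbxw7, a ubiquitin ligase subunit gene. The farther Zbtb16 peak and the Galnt2 peak at 365775 nt came next. Of these 12 highest peaks, 6 lay within 500 nt of another start.

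Intragenic peaks were low in all libraries. The mean value of a member ranged from 3 to 69.2, with a median of 12.2 against 13 over all peaks and 14 for peaks at the TSS. Medians per library were 12 and 13.5 in Ctrl against 12 and 12 in Tet3smKO:T. Of the members, 143 had at least 10 in every library and 9 had 0 in at least 1 library. On the log2(value + 1) scale, the correlation across the 342 peaks was 0.62 between the Ctrl libraries and 0.64 between the Tet3smKO:T libraries, and 0.42 to 0.51 between libraries of different genotype. For the 1013 peaks at the TSS these were 0.69, 0.69 and 0.64 to 0.68. In members without a start nearby they were 0.55, 0.63 and 0.30 to 0.42. These are correlations across peaks that share the same libraries, depths and peak calling, and are given as a description. Immediately around the 500-nt limit, the outermost TSS peak (Fgfbp3) had 12, 11, 5 and 13 in Ctrl 1, Ctrl 2, Tet3smKO:T 1 and Tet3smKO:T 2, and the innermost member (Cpeb2) had 5, 9, 11 and 6.

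The share of the signal in intragenic peaks overlapped between genotypes. They held 16.9% and 18.8% of the summed values of all peaks in the Ctrl libraries and 18.4% and 18.0% in Tet3smKO:T, or 17.8% ± 1.36 and 18.2% ± 0.276 (SD, n = 2 each). The difference of 0.379 percentage points was within the spread of Ctrl, and the two-sided exact permutation test gave p = 1. With 2 libraries per genotype this test cannot go below 0.333. The sign of the difference depended on the libraries and peaks entered, at -0.58 without Ctrl 1, 1.34 without Ctrl 2 and -0.058 with the upper 75% of peaks by mean value. Members near another start held 9.29% and 9.94% in Ctrl against 9.42% and 9.49% in Tet3smKO:T (exact permutation p = 1). Those without one held 7.59% and 8.86% against 8.99% and 8.53% (exact permutation p = 0.667), where Ctrl 1 was lowest and Ctrl 2 lay between the Tet3smKO:T libraries. Their difference of 0.541 percentage points became -0.095 without Ctrl 1 and 1.18 without Ctrl 2.

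Only the farthest step had Tet3smKO:T shares above both Ctrl shares, among the 4 distance steps. Beyond 100000 nt the shares were 2.66% and 2.79% in Ctrl against 3.13% and 2.94% in Tet3smKO:T, at the smallest p the exact permutation test allows (0.333). The last 20% of the gene had 2.13% and 2.43% against 2.67% and 2.54%, and the bin from 40% to 60% had 2.25% and 2.58% against 2.19% and 2.16%, both also at 0.333.

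**Figure D3:**
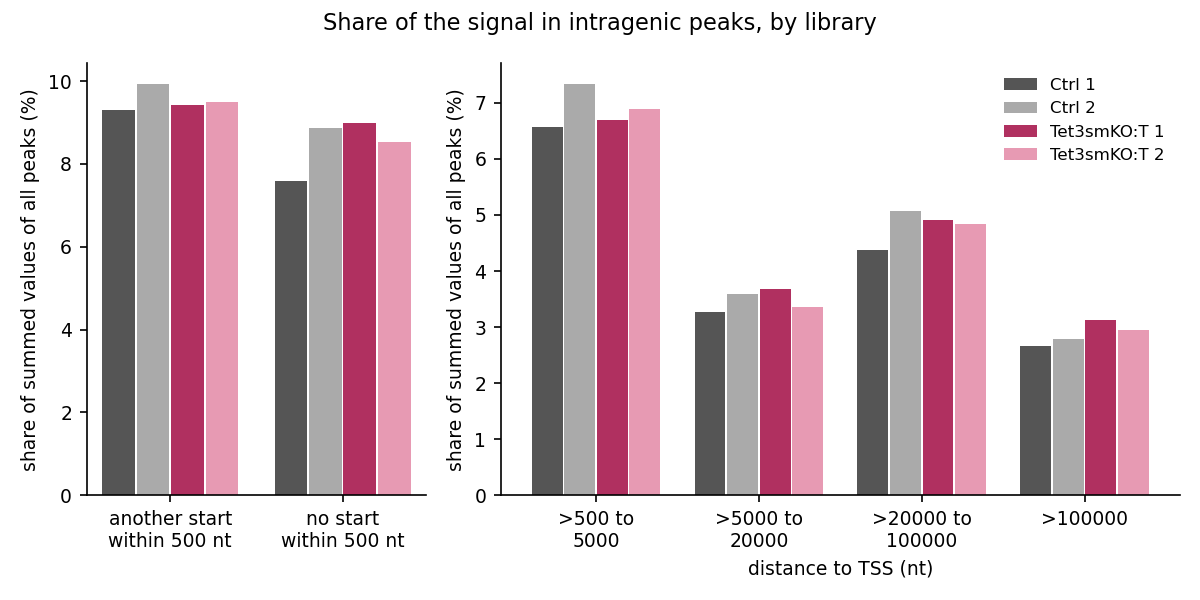
Bars give the share, in percent, of the summed values of all peaks that fell in intragenic peaks in each of the 4 libraries, by presence of another annotated start within 500 nt (left) and by distance to the TSS in nt (right). The bars of the genotypes interleave in every group but the last, where Tet3smKO:T (3.13% and 2.94%) stood above Ctrl (2.66% and 2.79%).

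No intragenic peak passed the test between genotypes. The limma fit over all 1761 peaks with Benjamini-Hochberg adjustment called 0 peaks (0%), and the lowest adjusted p among members was 0.681. At an unadjusted p under 0.05, 127 peaks passed. These were 57 higher in Tet3smKO:T (3.24% of all peaks) and 70 lower (3.98%), and 15 and 20 of the 342 members were among them (4.39% and 5.85%). The higher count depended on the libraries entered, with 7 to 38 members when a library was left out, while the lower count was 15 to 19. The extremes came without Tet3smKO:T 2 (7) and without Ctrl 2 (38), and 26 were found without Ctrl 1. Members whose values did not overlap between genotypes numbered 70 higher (20.5%, against 17.1% of all peaks) and 54 lower (15.8%, against 16.6%).

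Under other settings a few peaks were called. With reads estimated from the values, a quasi-Poisson model called 5 peaks (0.284% of all), and 4 of them were intragenic: Zbtb16 at 112468 nt (higher), and Nkd1, 1700012B07Rik and Gm27008 (lower). This model shared a single dispersion over all peaks and did not use the replicate spread of each peak, so its calls are weaker than replicate-based ones. When each library was scaled to the same total before the limma fit, 6 peaks (0.341%) passed and 2 were intragenic, Zbtb16 and Nkd1. The prior degrees of freedom of that fit were unlimited. It therefore also used a shared variance trend in place of the replicate spread of each peak. All 4 genes carried these peaks away from annotated starts. Gm27008 had 14 and 10 in Ctrl against 1 and 2 in Tet3smKO:T, and was singled out here after its values were seen.

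Among the non-overlapping peaks, those with the smallest p lay both away from starts and at starts. Of all 342 members, 160 lay in introns away from starts. The peak in Edc3, which encodes an enhancer of mRNA decapping, was 14966 nt from the TSS with 5 and 6 in Ctrl against 17 and 20 in Tet3smKO:T (log2 fold change 1.58 ± 0.31 SE). Zbtb16 at 112468 nt had a log2 fold change of 1.52 ± 0.30 (SE). Susd6, a target gene of p53, had 5 and 5 against 17 and 17 in an intron 31013 nt from the TSS. In all 3 the Tet3smKO:T libraries lay well above the Ctrl libraries and close to each other. Dock9, an activator of the GTPase Cdc42, followed with 10 and 9 against 17 and 19. The 2 others lay at starts of other genes. The peak assigned to Epo (erythropoietin), with 14 and 13 against 23 and 24, was 10.5 nt from the start of Pop7, an RNase P subunit gene, and the peak assigned to Tonsl (5 and 5 against 12 and 12) was 17.5 nt from that of Vps28, an endosomal sorting gene. Their adjusted p-values (limma) were all 0.681.

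In the other direction, Nkd1, an antagonist of Wnt signalling, had 19 and 19 in Ctrl against 3 and 1 in Tet3smKO:T (log2 fold change -2.82 ± 0.54 SE). The Nkd1 peak was 34496 nt from the TSS, at 46.9% of the gene. In 1700012B07Rik the values were 12 and 20 against 3 and 1 (log2 fold change -2.55 ± 0.63 SE). Both were at 3 or less in each Tet3smKO:T library, and the size of the fold changes depended on the constant of 1 added before taking logs. With a constant of 10 the log2 fold change was -1.28 for Nkd1 and -1.10 for 1700012B07Rik, and for Edc3 and Susd6 it was 0.88 and 0.85. Elmsan1, part of a histone deacetylase complex, had 33 and 34 against 14 and 19, 71.5 nt from another start of the same gene. Znf503, a zinc-finger transcription factor gene, had 25 and 21 against 8 and 12, 1657 nt from its TSS. Ankrd13a, which encodes a ubiquitin-binding protein, had 22 and 21 against 6 and 11 in an intron. Gm10642 had 25 and 24 against 12 and 13, 102.5 nt from the start of Mindy2, a deubiquitinase gene. Here too the genotypes stood apart without overlap, by the rule that chose the peaks, and all adjusted p-values (limma) were 0.681.

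**Figure D4:**
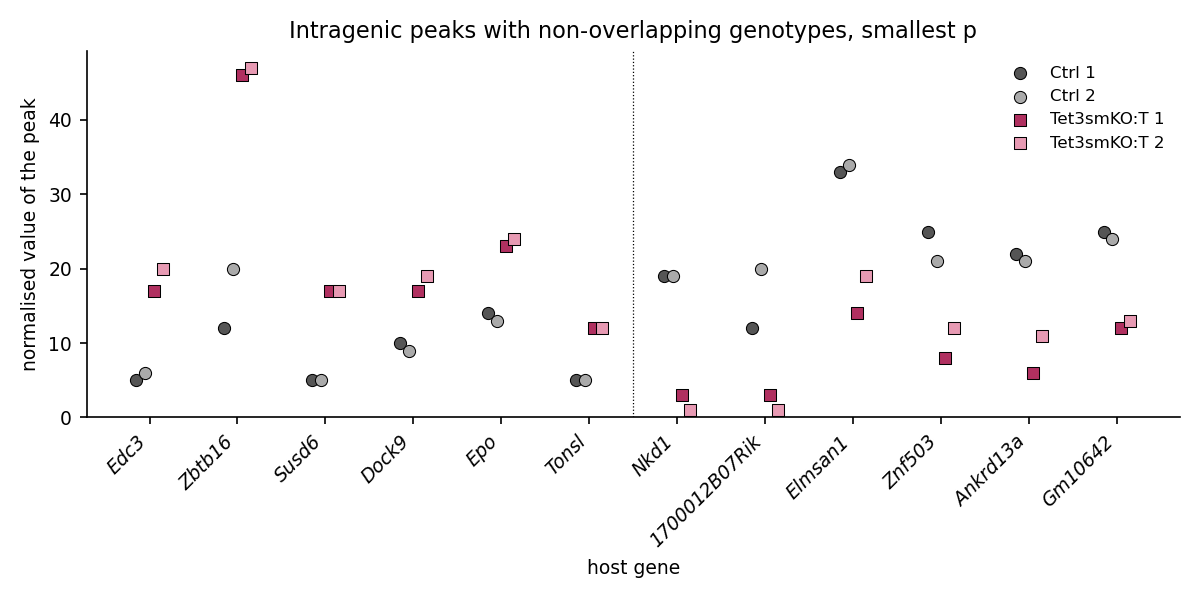
Points are the normalised values in the 4 libraries (circles Ctrl, squares Tet3smKO:T) of the 6 higher and 6 lower intragenic peaks with the smallest p among those that did not overlap between genotypes, labelled by host gene. The peaks were selected for this separation, and Zbtb16 reached 46 and 47 in Tet3smKO:T against 12 and 20 in Ctrl.

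The typical difference was close to 0 at every distance, in values that the authors had scaled between libraries. A change shared by most peaks could be removed by such scaling, and signal outside called peaks was not measured. The median log2 fold change of Tet3smKO:T over Ctrl was 0.06 over the 342 members (183 above 0), against -0.02 over all peaks and -0.04 over peaks at the TSS. By step it was -0.00, 0.06, 0.11 and 0.13 from the nearest to the farthest. The order was not stable, since the farthest step had a median of -0.09 once the lowest peaks were left out (upper 75% by mean). Quartiles in that step were -0.28 and 0.72. Along the gene the medians were -0.00, 0.06, -0.18, 0.11 and 0.18 from the first to the last 20% of the gene. No step or bin was tested. Over all members, the median log2 difference was -0.17 between Ctrl 1 and Ctrl 2 and 0 between Tet3smKO:T 1 and 2.

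Members without a start nearby had a median of 0.13 (108 of 181 above 0), and members near one had -0.03 (75 of 161 above 0). The first of these values rested on the Ctrl libraries, at 0.22 without Ctrl 2 and 0.02 without Ctrl 1. Peak by peak, the median log2 difference from Ctrl 1 was 0.35 in Tet3smKO:T 1 and 0.21 in Tet3smKO:T 2, and the median difference from Ctrl 2 was 0.10 and 0.

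**Figure D5:**
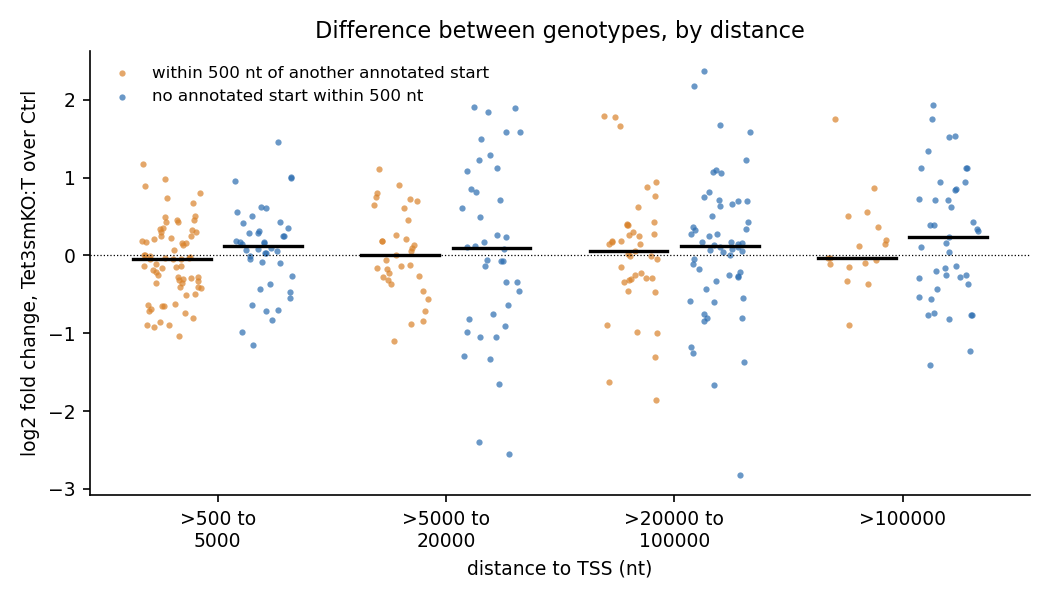
Each point is the fitted log2 fold change (Tet3smKO:T over Ctrl, on log2 of value plus 1) of an intragenic peak, by distance to the TSS in nt and by presence (orange) or absence (blue) of another annotated start within 500 nt. Black bars are medians, which lie between -0.05 and 0.24, and single peaks spread from about 2 above to almost 3 below 0.

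A set of 15 genes had both an intragenic peak and a peak at the TSS. In 9 of them the intragenic peak had the lower mean. Summed over the 15 genes, the ratio of intragenic to TSS values was 0.642 and 0.718 in Ctrl against 0.684 and 0.739 in Tet3smKO:T, so the genotypes interleaved. In Eef1a1 the TSS peak had 57 and 80 in Ctrl against 42 and 62 in Tet3smKO:T, below the intragenic peak in every library. Tcf4, a basic helix-loop-helix transcription factor gene, had 41 and 34 against 42 and 35 at the TSS, but 5 and 9 against 12 and 16 at an internal start 71522 nt downstream. In Susd6 the TSS peak had 24 and 21 against 19 and 24, with no separation, where the intronic peak was separated. Lig4 (DNA ligase IV) had 14 and 14 against 15 and 30 at the TSS and 18 and 16 against 11 and 10 at the member. Dscr3 and Apbb2 had 32 and 40 against 33 and 24, and 24 and 31 against 30 and 25, at the TSS, and 5 and 13 against 9 and 6, and 4 and 4 against 10 and 6, at the member. For Tcf4, Susd6 and Apbb2 the members were thus higher in Tet3smKO:T without overlap, and that of Lig4 was lower. None of these members passed the limma test (adjusted p 0.691, 0.681, 0.716 and 0.691 in that order). Over all peaks, 17.1% were higher and 16.6% lower without overlap.

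Few of the listed genes of SMC function held an intragenic peak, and 315 genes of any kind held a member. No share over all annotated genes was computed, so these counts are not read as a depletion. Of 20 contractile genes only Tpm1 (tropomyosin) did, at another start, with 31 and 26 in Ctrl against 25 and 35 in Tet3smKO:T. Prkg1, the cyclic GMP-dependent kinase of muscle relaxation, was the single gene of 24 in calcium and cyclic nucleotide signalling, with 8 and 11 against 12 and 10. Of 23 adhesion and matrix genes, 3 held a member. These were Actn1 (7 and 16 against 14 and 14), Itga1 (8 and 3 against 10 and 7) and Vcl (5 and 4 against 8 and 8), which encode α-actinin, an integrin chain and vinculin. Their values were low, and of these 3 only Vcl did not overlap between genotypes, being higher in Tet3smKO:T. Among 16 genes that modify cytosine or histone H3 lysine 36, Nsd3, a methyltransferase gene, had 12 and 23 against 10 and 10, lower without overlap. Kdm2a, a demethylase gene, had 13 and 11 against 12 and 18. Of all peaks, 17.1% were higher and 16.6% lower without overlap. No member was assigned to any of 29 genes of initiation, pausing and elongation or of 11 genes of TLR7 signalling. In these lists 0 members were called. The marker genes of SMCs (5), epithelium (4), endothelium (4), immune cells (4) and fibroblasts (3) had neither an intragenic peak nor one at the TSS, so the peaks gave no check of the labelled cell type. No peak was assigned to Tet3 either, and the deletion could not be checked in these values.

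Ctrl 2 had the highest value at most of the repeat-rich members. Over 50% of the sequence was soft-masked as repeat in 7 members, none of them near an annotated start, and these were singled out after their values were seen. In 6 of the 7, Ctrl 2 had the highest value of the 4 libraries. Its median over all members was also the highest, at 13.5 against 12 in each other library. How often Ctrl 2 was highest over all members was not counted. The whole table held 19 peaks over this repeat limit, and those that were not members were not examined. At Il6ra, an interleukin-6 receptor gene, the values were 16 and 33 in Ctrl against 14 and 17 in Tet3smKO:T, and at Sv2b, a synaptic vesicle protein gene, 15 and 36 against 13 and 14. The 7 peaks together held 0.547% of the summed values in Ctrl 2, against 0.200% in Ctrl 1 and 0.230% and 0.240% in Tet3smKO:T 1 and 2. The part of multiply mapping reads in this was not tested.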

How the data were processed

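Pol II pSer5 ChIP-seq peaks of 4 immunoprecipitated libraries (2 Ctrl, 2 Tet3smKO:T; 8 samples with the 4 inputs) were analysed. Per the submitters' processing notes, the tools the authors used included FastQC, Trimmomatic 0.36, Picard 2.17.10, MACS2 and DESeq2, on mm10. The study's methods say that the authors subtracted input in 50-nt windows, averaged the signal over peaks and scaled it with DESeq2. The deposited values are whole numbers and are treated as a normalised score, not as counts. Whether input had been subtracted from them was not tested. The deposited fraction of each peak that overlaps the gene body was read only as a check, and 0 value columns were left unassigned.

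Here, log2(value + 1) was tested with limma 3.58.1 (R 4.3.3; trended eBayes, all 1761 peaks, no filter, Benjamini-Hochberg) after a check on simulated data. Summed values were 25673 to 27058 per library, and estimated reads in peaks, from the spacing of the values, 21560 to 37207. With values near 12 per peak, counting error alone is large, so small differences could not be seen at this depth. Shares were compared by exact permutation tests. Transcript starts and gene parts came from GENCODE M21 and sequence from GRCm38.p6, the patch release of the build named mm10. The table gave no symbol for 57 members, which were named by gene identifier in M21. The table's peak coordinates were taken as 1-based.

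Named peaks were the 3 highest by mean in each of the 4 distance steps; among peaks without overlap between genotypes, the 6 higher and 6 lower with the smallest p; all peaks of the 5 genes with most members (ties in number broken by the summed mean value); the 3 farthest; and members of the 6 highest genes that also had a TSS peak. Members, gene lists and rules were chosen with earlier results of these data known. Alternatives were pseudocounts of 0.1 and 10, the upper 75% of peaks by mean, quantile and total scaling, a replicate block, each library left out, a quasi-Poisson test, limits of 1000 nt, and protein-coding starts only; a split by CpG content was added after seeing the data.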

Additional observations from a re-analysis of the deposited data

How the results depend on the processing

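Of 166 values recomputed under alternatives, 138 stayed within the spread between replicates or within 1.5 times the count, and 28 moved. Peaks called over the table numbered 0 with limma and every alternative of it except total scaling (6), and 5 with the quasi-Poisson test; at an unadjusted p under 0.05 the counts were 127 and, under total scaling and quasi-Poisson, 161 and 192. Total scaling gave limma an unlimited prior degrees of freedom against 3.75 as deposited. Higher members at an unadjusted p under 0.05 (15) became 7 with the upper 75% of peaks, 27 with total scaling, 36 with quasi-Poisson and 7 to 38 with a library left out; lower members (20) were 15 to 19 with a library left out. With the replicate block there were 7 higher members, and 0 peaks were called; the block lowered the peaks at an unadjusted p under 0.05 from 127 to 74. The libraries were not treated as pairs, since the labels tie the numbers to no shared animal or day. Same-numbered libraries had deviations correlated at -0.074. With low values and few libraries, this correlation cannot show whether they were paired.

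Medians of log2 fold change moved as follows. Leaving out a library gave -0.01 to 0.13 over all members, -0.083 to 0.15 over 5000 to 20000 nt, 0 to 0.20 over 20000 to 100000 nt and 0.072 to 0.27 over 100000 nt. Along the gene it gave -0.082 to 0.11 (first 20%), -0.22 to -0.10 (40% to 60%), -0.033 to 0.21 (60% to 80%) and 0.076 to 0.25 (last 20%), and 0.020 to 0.22 for members without a start nearby. The upper 75% of peaks gave -0.063 over 5000 to 20000 nt, -0.092 over 100000 nt and -0.011 in the last 20%. A pseudocount of 10 gave 0.080 over 100000 nt and -0.087 between 40% and 60% of the gene, where quantile normalization gave -0.13. With a library left out, the single library of that genotype was assumed to vary like the other genotype. The share of summed values in intragenic peaks differed by -0.58 to 1.34 percentage points with a library left out. The cause was not tested. Of 430 values of the 44 named peaks under alternatives, 410 kept their sign and 20 did not, and Zbtb16 at 112468 nt and Nkd1 passed the adjusted threshold under total scaling.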

Other observations

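Of the 406 peaks with no assigned gene, 224 (55.2%) were CpG-rich by the same limits, against 165 of the 342 intragenic peaks (48.2%). The 182 unassigned peaks that were not CpG-rich had a median log2 fold change of -0.10 between genotypes, where the 177 intragenic peaks of the same kind had 0.14. In these 2 sets the median log2 difference between Ctrl 1 and Ctrl 2 was -0.21 and -0.26, larger in size than the difference between genotypes. Between Tet3smKO:T 1 and 2 it was 0.17 and 0. Neither difference between genotypes was tested.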
